A study of Mus musculus with 30 samples.

Results

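The elastic fibre genes examined here were 10 genes whose proteins build, coat or cross-link elastic fibres: Eln, Fbn1, Fbln5, Fbln1, Fbln2, Mfap2, Mfap4, Mfap5, Lox and Loxl1. Every probe set annotated with exactly 1 of these symbols was taken, which gave 20 probe sets for 9 of the 10 genes among 36899 probe sets in all. The expression of Fbn1, which encodes fibrillin-1, was not analysed here. Of the 20 probe sets, 17 passed the filter on dim signals and were tested, among 25801 tested probe sets. The filter took probe sets above a floor on at least 2 arrays, and the 3 that did not pass (1 each of Fbln1, Mfap4 and Lox) lay below it on every array.

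An elastic fibre has a core of elastin on a scaffold of microfibrils, which are made of fibrillins and microfibril-associated proteins. Fibulins link the tropoelastin monomers to the microfibrils, and enzymes of the lysyl oxidase family cross-link them into an insoluble polymer. In the lung these fibres give alveoli and vessel walls their recoil, and fibroblasts, smooth muscle cells and mesothelial cells are known to make them.

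The series concerns vascular remodelling in pulmonary hypertension. Total RNA of mouse lung was hybridised to 3 types of Affymetrix MG-U74 oligonucleotide array (A, B and C), which carry different probe sets. Animals were kept in a chamber with 10% oxygen, in 4 groups that differ in the time spent there (10 h, then 2 d, 4 d and 6 d). A further group is titled Norm, and each group has 2 samples, lettered 1a and 1b. Strain, age and sex were not given, nor was any transgene or mutation. The titles do not say what Norm stands for, and the description of those samples mentions a rejection, a term from transplantation. The groups are those of the titles. Nothing states that 1a and 1b were separate animals. Each p-value rests on the spread between samples of a group, pooled over all groups, and those samples may be technical repeats.

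The arrays differed in several respects that bear on every result below. The A array titled Norm 1a stands among the B values and did not correlate with the B arrays (Spearman -0.00277 to 0.00963), so 29 of 30 arrays were used and the A type held a single Norm array. Lung markers were bright throughout: Sftpb, a surfactant protein, ranked at or above the 98.5 percentile of every A array and Aqp5, an alveolar water channel, at or above the 94.1 percentile of every B array, although the probe set of Pecam1, an endothelial adhesion molecule, ranked between the 38.6 and 67.3 percentiles. For the Gapdh control the 3' signal divided by the 5' signal, a measure of RNA integrity, was 3.64 to 4.60 at 2 d and 0.786 to 1.68 in all other groups. By their place in the deposit, the arrays of 2 d and 6 d make up one run on every array type. Those of Norm, 10 h and 4 d make up another run on B and C, and a separate one on A. Differences of 2 d or 6 d from Norm, 10 h or 4 d thus cannot be told apart from a difference between runs.

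2 A arrays went against their labels. Genes carried by more than 1 array type were centred over the 9 samples that all types share, and each array's profile was correlated with those of the other types, as a description over genes, which are not independent. The A array labelled Norm 1b was most like the sample 4 d 1a on B (r = 0.366 over 241 genes, against 0.0336 with its own sample) and on C (r = 0.272 over 323 genes, against 0.0935). The A array labelled 4 d 1a correlated at -0.0425 and -0.0568 with its own sample on B and C. These correlations were low in general: the best match was in the array's own group for 6 of 9 samples between A and B, 6 of 9 between A and C and 8 of 9 between B and C. The array labelled 6 d 1b was the other A array whose best match lay in another group (2 d 1b on both types). The differences between times on the A arrays are therefore given also without the arrays labelled Norm 1b and 4 d 1a, a check chosen after seeing the data. There the A type has no Norm array and no comparison with Norm, and 4 d is the single array 1b, assumed to vary like the other groups.

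**Figure D1:**
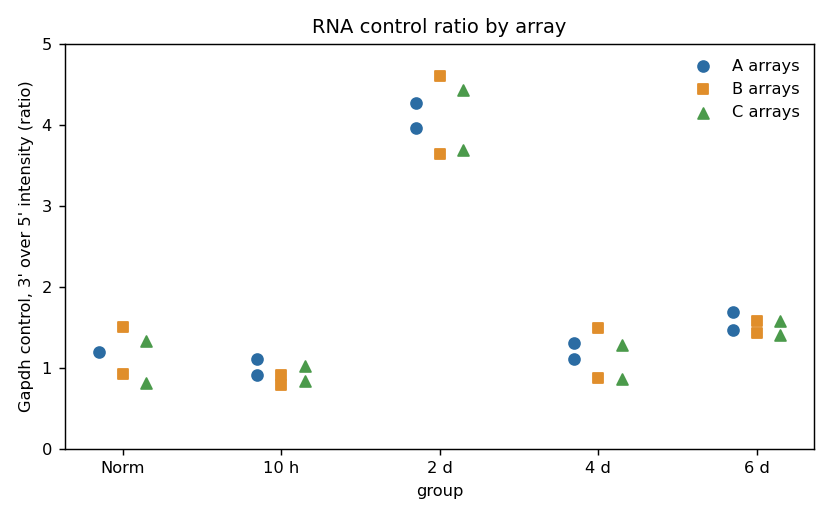
Ratio of 3' to 5' intensity of the Gapdh control (vertical axis, ratio) for each array by group (horizontal axis), with 1 point per array and a colour and symbol per array type. The 6 arrays of 2 d lie between 3.64 and 4.60 and those of the other groups between 0.786 and 1.68.

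Of the 2 members with a called difference, Eln had the larger changes. Eln, which encodes the monomer tropoelastin, has 2 tested probe sets on A. For probe set 92836_at the deposited intensity was 6639 on the array labelled Norm 1b, 6535 and 7079 at 10 h, 26096 and 33877 at 2 d, 12250 and 7066 at 4 d, and 21340 and 13907 at 6 d (1a before 1b). Both 2 d arrays and both 6 d arrays stood above all other arrays, and the groups 2 d and 6 d did not overlap. The intensity rose 4.37-fold at 2 d relative to 10 h (log2 difference 2.13 ± 0.32 SE, 95% interval 1.39 to 2.86, limma adjusted p = 0.0152). It was higher on both 2 d arrays than on both 10 h arrays, as were 28.2% of all tested probe sets. Against the single array labelled Norm 1b, itself most like 4 d 1a, the 2 d signal was 4.48-fold higher (2.16 ± 0.39 SE, limma adjusted p = 0.0397), with an SE that comes from the spread in the other groups. At 4 d it fell relative to 2 d (-1.68 ± 0.32 SE, adjusted p = 0.0319).

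The comparison of 2 d with 10 h held without the A arrays labelled Norm 1b and 4 d 1a (2.13 ± 0.27 SE, limma adjusted p = 0.0252), as did that of 4 d with 2 d (-2.07 ± 0.34 SE, adjusted p = 0.0360), where 4 d was then a single array. All 3 differences kept their sign under each alternative run. The call of 2 d against Norm was lost under 14 of 18 alternatives, with adjusted p values up to 0.233. The call of 2 d against 10 h was lost under 6 of 20, namely without any 1 of the 10 h or 2 d samples, without the filter on dim probe sets and with the compared groups fitted alone. The call of 4 d against 2 d was lost under 10 of 20.

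The order of the group means of 92836_at was Norm, 10 h, 4 d, 6 d, 2 d, from low to high. No neighbours in that order differed at an adjusted p of 0.05: 10 h minus Norm was 0.03 ± 0.39, 4 d minus 10 h 0.45 ± 0.32, 6 d minus 4 d 0.89 ± 0.32 and 2 d stood above 6 d by a difference (6 d minus 2 d) of -0.79 ± 0.32 on the log2 scale. Without the arrays labelled Norm 1b and 4 d 1a, the differences were 0.055 ± 0.34 for 4 d minus 10 h, 1.29 ± 0.34 for 6 d minus 4 d and -0.79 ± 0.27 for 6 d minus 2 d, and limma called none of them. At 6 d the difference from 10 h was 1.34 ± 0.32 (limma adjusted p = 0.150, and 0.144 in that check) and from Norm 1.38 ± 0.39 (adjusted p = 0.339). The A arrays of 6 d had Gapdh ratios of 1.68 and 1.46, against 0.909 to 1.31 on those of Norm, 10 h and 4 d. Their ratios for Actb, the other such control, were 1.66 and 1.20, against 0.0862 to 0.644. At 2 d the A arrays had 4.28 and 3.97 for Gapdh and 3.77 and 4.62 for Actb. The part of RNA integrity in the 2 d and 6 d values was not tested.

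The second Eln probe set, 92207_at, had a different peak. Its intensity was 333 on the array labelled Norm 1b, 342 and 212 at 10 h, 1235 and 1398 at 2 d, 1717 and 366 at 4 d, and 2669 and 2534 at 6 d. Here 6 d was highest on both arrays, the 10 h array 1b lay below the floor of 236.05, and the 4 d arrays lay far apart. The difference at 6 d from 10 h was 3.19 ± 0.59 on the log2 scale (limma adjusted p = 0.0921) and became a call without the arrays labelled Norm 1b and 4 d 1a (3.19 ± 0.22, adjusted p = 0.0354). At 2 d the difference from 10 h was 2.21 ± 0.59 (adjusted p = 0.0702), likewise called in that check (adjusted p = 0.0156). Across the 9 A arrays the floored log2 levels of the 2 Eln probe sets correlated at r = 0.782 (0.791 over the 7 left in the check), points that share their libraries and depth of signal.

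**Figure D2:**
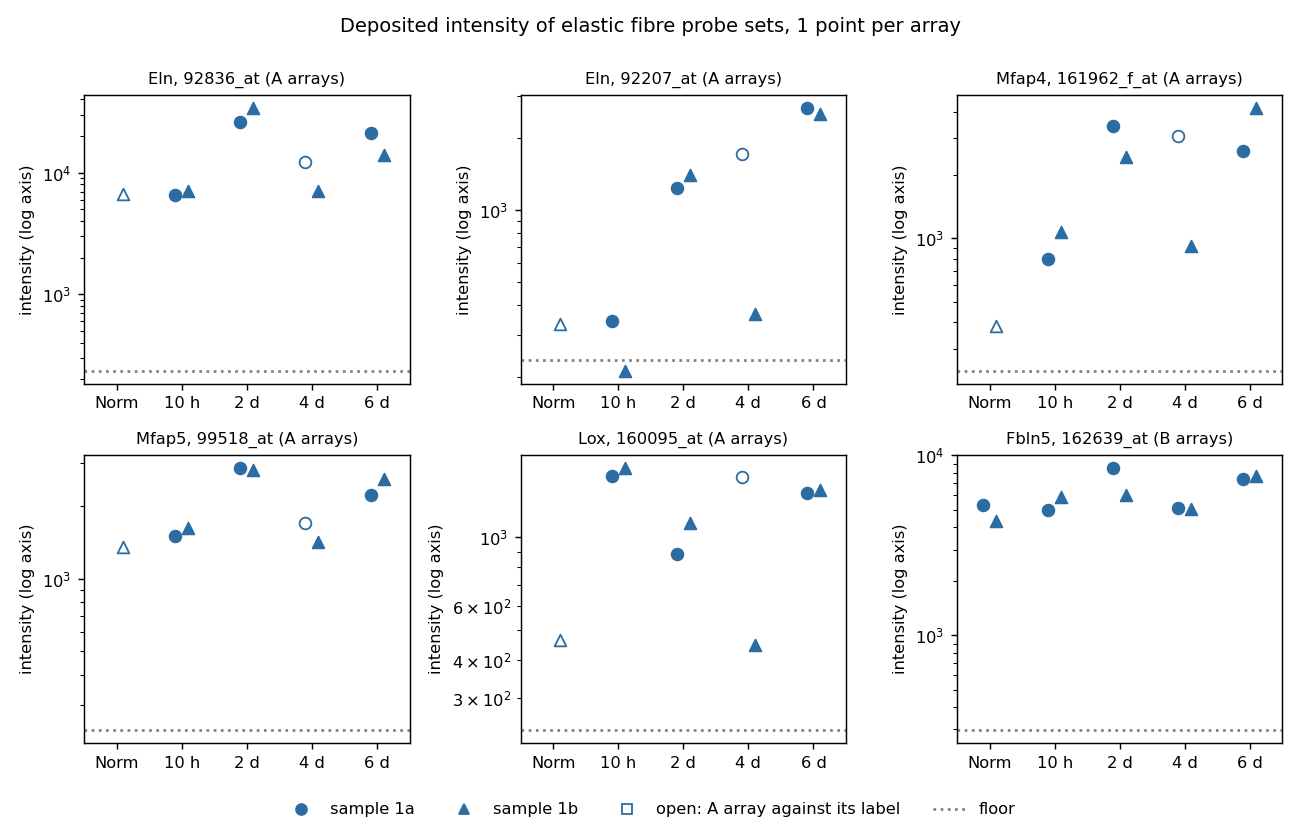
Deposited intensity (vertical axis, log scale) of 6 probe sets of Eln, Mfap4, Mfap5, Lox and Fbln5 by group (horizontal axis), with circles for sample 1a, triangles for 1b, open symbols for the A arrays labelled Norm 1b and 4 d 1a, and a dotted line at the floor. Both Eln probe sets are higher on the 2 d and 6 d arrays than on the 10 h arrays, and Lox is lowest on the arrays labelled Norm 1b (463) and 4 d 1b (447).

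Among the microfibril-associated proteins, 1 of 4 Mfap5 probe sets had called differences and Mfap4 and Mfap2 had none. Mfap5 (MAGP-2), a small glycoprotein bound to fibrillin microfibrils, has 4 probe sets, 2 on A and 2 on C. For 99518_at on A the intensity was 1348 on the array labelled Norm 1b, 1497 and 1612 at 10 h, 2870 and 2805 at 2 d, 1703 and 1412 at 4 d, and 2217 and 2567 at 6 d. The 2 d pair lay above every other array and the 6 d pair above all Norm, 10 h and 4 d arrays. It rose 1.83-fold at 2 d relative to 10 h (log2 difference 0.87 ± 0.15 SE, limma adjusted p = 0.0234) and was 2.10-fold above the single Norm array (1.07 ± 0.19, adjusted p = 0.0361). It fell by 0.87 ± 0.15 on the log2 scale at 4 d relative to 2 d (adjusted p = 0.0262).

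Without the arrays labelled Norm 1b and 4 d 1a the Mfap5 difference at 2 d from 10 h kept its call (limma adjusted p = 0.0224), as did that of 4 d from 2 d (-1.01 ± 0.13, adjusted p = 0.0232). Its calls were lost under 8 of 20 alternatives for 2 d against 10 h, where adjusted p reached 0.133, including the fits without either 6 d sample. They were lost under 12 of 18 for 2 d against Norm and 9 of 20 for 4 d against 2 d.

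The C probe set of Mfap5, 131248_at, went another way. Its intensity was 3960 and 2736 in Norm, 2393 and 1954 at 10 h, 2503 on both 2 d arrays, 2959 and 2081 at 4 d, and 3405 and 3335 at 6 d. The difference at 2 d was -0.40 ± 0.23 from Norm (95% interval -0.92 to 0.12) and 0.21 ± 0.23 from 10 h (-0.31 to 0.73), and the 2 d arrays lay below both Norm arrays. Of the other Mfap5 probe sets, 99517_at was above the floor on 6 of 9 A arrays (91.4 to 726) and 169062_at on 2 of 10 C arrays (88.8 to 615). Neither passed the limma test in any comparison. Probe set 169062_at passed the filter only through 2 d array 1b (215) and 6 d array 1a (615). Its differences at 2 d and 6 d from Norm, 10 h or 4 d thus could not be negative, and they cannot decide whether it changed. They are still included in the counts, medians and plots of the tested probe sets, and no conclusion is drawn from them.

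Mfap4, a fibrinogen-like protein that binds elastin and microfibrils, was measured by 161962_f_at, whose suffix marks probes that can match related sequences. Its intensity was 384 on the array labelled Norm 1b, 801 and 1067 at 10 h, 3398 and 2423 at 2 d, 3050 and 919 at 4 d, and 2596 and 4149 at 6 d. The 2 d and 6 d arrays stood above Norm and 10 h without overlap, and the 4 d pair was split. The differences from Norm were 2.90 ± 0.61 at 2 d (limma adjusted p = 0.0555) and 3.10 ± 0.61 at 6 d (adjusted p = 0.225), and neither passed. Against 10 h the 2 d difference of 1.63 ± 0.50 had an adjusted p of 0.0967 in limma, and 0.0476 without the arrays labelled Norm 1b and 4 d 1a. The plain Mfap4 probe set, 96826_at, lay at 36.6 to 206, below the floor on all 9 arrays.

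Mfap2 (MAGP-1), the other microfibril-associated glycoprotein, gave 1722 on the array labelled Norm 1b, 1428 and 1248 at 10 h, 1580 and 1733 at 2 d, 1198 and 1225 at 4 d, and 1773 and 2029 at 6 d for probe set 101095_at. Both 6 d arrays were highest and both 4 d arrays lowest, and the 2 d and 6 d arrays lay above all 10 h and 4 d arrays. The widest difference, 6 d minus 4 d, was 0.65 ± 0.15 on the log2 scale (limma adjusted p = 0.211), and 0.63 ± 0.15 without the arrays labelled Norm 1b and 4 d 1a (adjusted p = 0.167). The upper bounds of the 95% intervals against Norm were 0.07 at 10 h, 0.38 at 2 d, -0.07 at 4 d and 0.57 at 6 d, and only the interval at 4 d excluded 0.

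Fibulins showed no call in any comparison. Fbln5, which tethers tropoelastin to microfibrils and integrins, is on the B arrays, which hold both Norm samples. Its intensity (162639_at) was 5303 and 4344 in Norm, 4988 and 5854 at 10 h, 8541 and 6033 at 2 d, 5076 and 5071 at 4 d, and 7399 and 7645 at 6 d. The 2 d and 6 d arrays were above all arrays of the other groups, though 2 d array 1b exceeded 10 h array 1b only slightly. The differences from Norm were 0.58 ± 0.20 at 2 d (limma adjusted p = 0.157) and 0.65 ± 0.20 at 6 d (adjusted p = 0.361). Fbln5 was above both Norm arrays on 2 of 2 arrays at 2 d and at 6 d. The 10 h array 1a and both 4 d arrays lay below Norm array 1a. Of all tested probe sets, 30.2% were above Norm without overlap at 2 d and 25.7% at 6 d.

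Fbln1, a fibulin of basement membranes and elastic tissue, has 3 tested probe sets that differed from each other. For 94307_at the intensity was 1055 on the array labelled Norm 1b, 891 and 1036 at 10 h, 938 and 671 at 2 d, 471 and 434 at 4 d, and 1279 and 1226 at 6 d, so that 4 d was lowest and 6 d highest on both arrays. The difference 6 d minus 4 d was 1.47 ± 0.23 on the log2 scale, with a limma adjusted p of 0.0884 (1.53 ± 0.25 and 0.0843 without the arrays labelled Norm 1b and 4 d 1a). Probe sets 94308_at (1019 to 1334) and 94309_g_at (1568 to 2561) had their lowest values at 6 d and at 2 d, and showed no such dip at 4 d. For 94309_g_at the 2 d arrays (1718 and 1568) lay below the 10 h arrays (2323 and 2219), a difference of -0.47 ± 0.15 (limma adjusted p = 0.111) that was called without the arrays labelled Norm 1b and 4 d 1a (adjusted p = 0.0481).

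Fbln2, a fibulin of vessel walls, gave 631 to 889 over all 9 A arrays (100928_at), and its differences from Norm were between 0.12 and 0.44 with SE 0.27. Its C probe set, 165843_i_at, was above the floor of 200.93 only on the 10 h arrays (332 and 209). It thus passed the filter only through the 10 h arrays, so a test of it against 10 h cannot decide whether it changed. Its differences from 10 h are still included in the counts and medians of the tested probe sets. They are also drawn in the plots of changes from 10 h, and no conclusion is drawn from them.

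Promoter windows of 300 bases around annotated starts were held for 5 of the 10 genes (Fbn1, Mfap2, Fbln2, Fbln5 and Fbln1, 8 windows in all), taken from RefSeq on build GRCm38.p6. They were searched on both strands for ACGTG, a form of the core of the hypoxia response element, and for TGANTCA. The latter is a loose form of the binding site of AP-1, in which N was any base. Other forms of that core, such as GCGTG, were not searched. ACGTG was in 2 of the 8 windows, both of Fbln1 and overlapping each other, and in 19.6% of all 32851 windows in the table. TGANTCA was in 0 of the 8 and in 7.81% of all. The Fbln1 and Fbln5 windows are shown because that of Fbln1 holds ACGTG and that of Fbln5 does not, while neither gene was called. Capitals mark ACGTG on either strand. In the Fbln1 window, chr15:85205699-85205998 on the + strand, matches start at bases 170, 171 and 199 counted from the first base shown, and the pair at 170 and 171 overlaps in a palindrome. The Fbln5 window is chr12:101819070-101819369 on the - strand. A match describes these letters only.
Fbln1: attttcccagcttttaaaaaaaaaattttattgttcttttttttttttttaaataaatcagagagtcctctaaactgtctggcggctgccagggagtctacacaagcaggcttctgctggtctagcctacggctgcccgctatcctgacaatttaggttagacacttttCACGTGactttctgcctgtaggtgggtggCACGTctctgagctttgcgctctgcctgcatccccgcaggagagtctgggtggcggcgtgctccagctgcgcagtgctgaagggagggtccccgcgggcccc
Fbln5: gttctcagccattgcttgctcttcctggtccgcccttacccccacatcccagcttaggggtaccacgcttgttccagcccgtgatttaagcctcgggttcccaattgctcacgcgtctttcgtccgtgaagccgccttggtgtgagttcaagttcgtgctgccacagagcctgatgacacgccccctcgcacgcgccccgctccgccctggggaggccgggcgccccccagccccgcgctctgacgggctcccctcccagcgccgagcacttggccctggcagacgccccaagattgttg

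The cross-linking enzymes gave no call either. Lox, the lysyl oxidase that oxidises lysines of elastin and collagen, had an intensity (160095_at) of 463 on the array labelled Norm 1b, 1589 and 1685 at 10 h, 885 and 1116 at 2 d, 1569 and 447 at 4 d, and 1393 and 1422 at 6 d. All low-oxygen arrays but 4 d 1b exceeded the Norm array, and 10 h was highest. The difference 10 h minus Norm was 1.82 ± 0.59 on the log2 scale (limma adjusted p = 0.650). Both low values came from the arrays labelled Norm 1b and 4 d 1b. Without the A arrays labelled Norm 1b and 4 d 1a, the lone 4 d array 1b (447) was called lower than 10 h (-1.87 ± 0.18, limma adjusted p = 0.0310) and lower than 2 d (-1.15 ± 0.18, adjusted p = 0.0332), and 6 d was called higher than 4 d (1.66 ± 0.18, adjusted p = 0.0360). These 3 calls rest on that single array, with a spread taken from the other groups, while the 4 d array left out gave 1569. The other Lox probe set, 161177_f_at, stayed below the floor.

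Loxl1, a lysyl oxidase-like enzyme that works on elastin through Fbln5, was measured on A and on C. On C, 170492_at gave 1395 and 1452 in Norm, 1672 and 1075 at 10 h, 2183 and 1583 at 2 d, 1014 and 1432 at 4 d, and 1647 and 1672 at 6 d. The 2 d and 6 d arrays were above the Norm arrays, but the 10 h array 1a was above 2 d array 1b and 6 d array 1a. On A, 103850_at ran between 331 and 555. At 2 d the differences from Norm were 0.39 ± 0.28 on C and 0.55 ± 0.34 on A, and limma called neither.

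**Figure D3:**
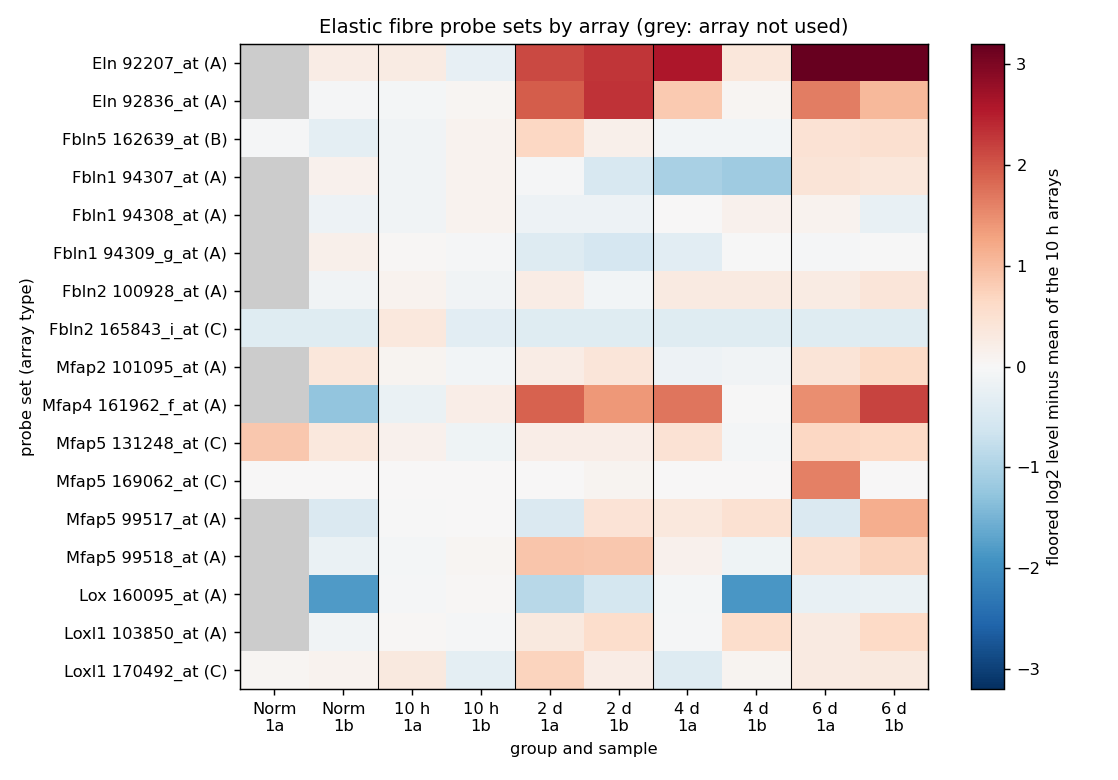
Floored log2 level of the 17 tested probe sets (rows, with array type) on each sample (columns) minus the mean of the 10 h arrays (colour scale, log2), with grey where the array was not used. Both Eln probe sets and Mfap4 are red on the 2 d and 6 d arrays and on the A array labelled 4 d 1a, and Lox is blue on the arrays labelled Norm 1b and 4 d 1b.

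Counted over comparisons, few members passed limma's test, which was adjusted over all tested probe sets at 0.05. At 2 d against Norm 2 of 17 probe sets were called, both higher (Eln 92836_at and Mfap5 99518_at), where 1.86% of all probe sets were called and 0.775% were called higher. An unadjusted p under 0.05 was seen for 6 of the 17, and for 18.9% of all. At 2 d against 10 h the same 2 of 17 were called, both higher, where 5.44% of all were called and 2.4% called higher, and 5 had an unadjusted p under 0.05 (23.2% of all). At 4 d against 2 d these 2 were called lower, where 3.94% of all were called and 1.73% called lower, and 5 had such a p (22% of all). The median change of the 17 was 0.39 at 2 d against Norm, with 11 above 0 (49.7% of all probe sets), and 0.21 at 2 d against 10 h, with 11 above 0 (49.6% of all). The median of all tested probe sets was 0 in both. Each count of 11 includes Mfap5 169062_at, whose change could not be negative there. All 3 comparisons share the 2 d arrays.

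In the other comparisons 0 members were called by limma. At 10 h against Norm 2 of 17 had an unadjusted p under 0.05, where 0% of all probe sets were called and 6.11% had such a p. At 4 d against Norm there were 3 (0.00775% of all called and 6.13% with such a p). At 6 d against Norm there were 6, all higher (0% and 9.17%, with 4.34% higher), and 15 of the 17 changes were above 0 with a median of 0.57, against 47.7% above 0 among all. These 15 include the change of Mfap5 169062_at, which could not be negative there. At 4 d against 10 h there were 2 (0.0233% and 8.08%), at 6 d against 2 d 3 (0.062% and 13%), at 6 d against 10 h 7 (0.0969% and 12.3%) and at 6 d against 4 d 6 (0.0504% and 10.8%). The mean of the 4 low-oxygen groups against Norm gave 6 (0% and 7.79%), the mean of 4 d and 6 d against the mean of 10 h and 2 d gave 1 (0.0155% and 11%), and the F test over the 4 comparisons with Norm gave 8 (1.24% and 19.6%). The comparisons with Norm share the Norm arrays, and 12 of the 17 probe sets are on A, where Norm is 1 array.

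**Figure D4:**
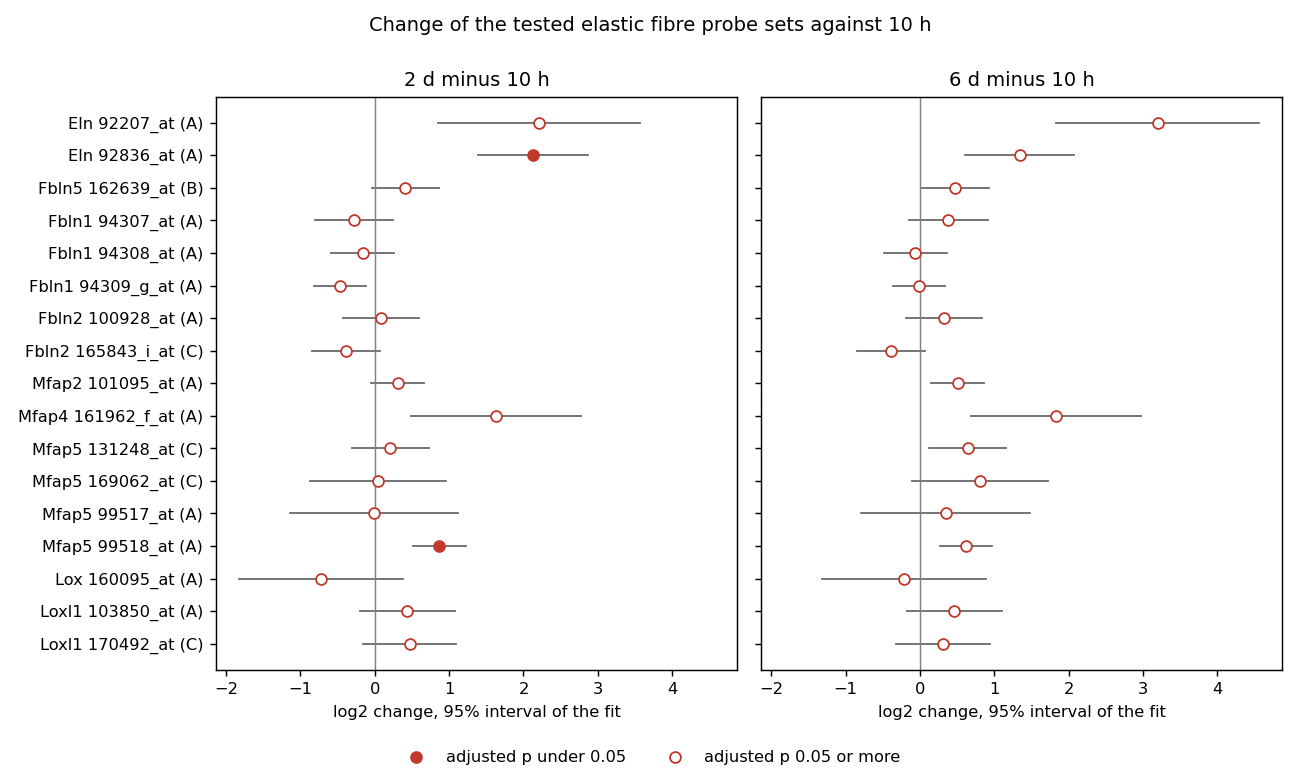
Log2 change of the 17 tested probe sets (vertical axis) at 2 d minus 10 h (left) and 6 d minus 10 h (right), with the 95% interval of the limma fit on a shared horizontal axis; filled points have an adjusted p under 0.05. The filled points are Eln 92836_at (2.13) and Mfap5 99518_at (0.87) at 2 d.

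Of 53 further genes of elastic fibre assembly, cross-linking and breakdown, 39 were tested and 1 was called, Adamtsl2, a secreted protein that binds fibrillin-1 and LTBP1. It was called at 2 d against 10 h (5.44% of all probe sets called), at 2 d against Norm (1.86%), at 4 d against 2 d (3.94%) and by the F test (1.24%). Its intensity on the B arrays (117074_at) was 3510 and 3211 in Norm, 1821 and 2928 at 10 h, 10159 and 8703 at 2 d, 2898 and 2444 at 4 d, and 6392 and 6890 at 6 d. The 2 d arrays were highest and the 6 d arrays next, with no overlap with any other group. It rose at 2 d by 2.03 ± 0.22 relative to 10 h (limma adjusted p = 0.00519) and by 1.49 ± 0.22 relative to Norm (adjusted p = 0.0211), and fell by 1.82 ± 0.22 at 4 d relative to 2 d (adjusted p = 0.00820). These calls were lost under 2, 8 and 4 of 20 alternatives, in that order, and the loss included the fit without the 2 d sample 1a each time. Its differences at 6 d of 0.98 from Norm (adjusted p = 0.237) and 1.52 from 10 h (adjusted p = 0.0542) did not pass in limma.

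Next by the F test, and not called, were 2 latent TGF-beta binding proteins, a microfibril glycoprotein and an integrin chain. Ltbp3 gave 540 on the array labelled Norm 1b, 389 and 376 at 10 h, 288 and 222 at 2 d, 242 and 97.6 at 4 d and 192 and 275 at 6 d, several of these below the floor. Ltbp2 gave 1484 and 1379 at 6 d against 782 on the array labelled Norm 1b (0.87 ± 0.26 on the log2 scale). Itga8, whose integrin is known from fibroblast and smooth muscle cells, gave 23269 and 20618 at 2 d, below all other C arrays, and Emilin1, an elastin-associated glycoprotein, was lowest at 4 d (858 and 489). In the 39 genes as a whole the median change at 2 d against Norm was 0.01, with 20 above and 18 below 0.

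Markers of the cells known to make elastic fibres were read on the same A arrays, and on B or C where these held further ones. They are given as summed intensities of fixed lists. In bulk tissue fewer cells of a type and less RNA per cell cannot be told apart. The 9 fibroblast markers summed to 49241 on the array labelled Norm 1b, 38717 to 47785 at 10 h, 56219 to 64079 at 2 d, 43428 to 54012 at 4 d and 48859 to 62312 at 6 d. The 2 d range overlapped that of 6 d, and the mean floored log2 level of the list was 11.96 and 11.82 at 2 d, 12.11 and 11.74 at 4 d and 12.06 and 11.87 at 6 d. The other fibroblast marker, on B, lay near the floor of 297.36, at 105 to 456 at 10 h and 397 to 419 at 2 d. The 8 smooth muscle markers summed to 28412 in Norm, 33680 to 37837 at 10 h, 34919 to 36122 at 2 d, 25174 to 34389 at 4 d and 21075 to 24090 at 6 d, lowest at 6 d. The other 2, on C, summed to 4989 to 5642 in Norm, 4253 to 4706 at 2 d and 4318 to 4917 at 6 d. At 10 h and 4 d these 2 summed to 4644 to 5061 and 4769 to 5808. The 3 mesothelial markers summed to 6494 in Norm, 5176 to 5720 at 10 h, 6812 to 8484 at 2 d, 5188 to 5601 at 4 d and 6082 to 6242 at 6 d. On C, the other 2 mesothelial markers summed to 10109 to 12282 in Norm and 10371 to 11171 at 2 d. At 10 h, 4 d and 6 d these 2 summed to 10173 to 10765, 9823 to 12424 and 12429 to 14092. The 4 pericyte markers summed to 7060 in Norm, 7300 to 7609 at 10 h, 6181 to 6511 at 2 d, 7807 to 12000 at 4 d and 8131 to 8175 at 6 d. The other 2 pericyte markers, on B, summed to 1370 to 1488 in Norm, 1060 to 1132 at 10 h, 1780 to 2145 at 2 d, 431 to 722 at 4 d and 1953 to 1980 at 6 d, so that 2 d was lowest on A but among the highest on B.

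No more than 1 gene of each of these 4 lists lay below the floor on any A array. At 2 d against 10 h, where 2.4% of all probe sets were called higher and 3.04% lower, limma called 1 of 10 fibroblast markers, which was lower (Dpt, a matrix protein, -0.87), 3 of 10 smooth muscle markers, all lower (Cnn1 at -1.67, Myh11 at -1.58 and Smtn at -1.34), 1 of 5 mesothelial markers, higher (Msln at 1.45), and 1 of 6 pericyte markers, higher (Cspg4 at 1.03). Each of these calls was lost under 5 (Cnn1) to 15 (Myh11) of the 19 or 20 alternatives, the Myh11 call also without the A arrays labelled Norm 1b and 4 d 1a. At 2 d against Norm it called none of the tested genes of these lists.

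Some lists of markers of other cell types were highest or lowest on the 2 d arrays as well, and others were not. Among the latter, the macrophage markers on A summed highest at 6 d (10134 to 12268, against 8080 to 8857 at 2 d). The lymphocyte markers on A summed lowest at 6 d (1889 to 2035, against 2454 to 2931 at 2 d). The 3 red cell markers on A summed to 16590 on the array labelled Norm 1b, 9279 to 16982 at 10 h, 35955 to 47027 at 2 d, 16534 to 21539 at 4 d and 19438 to 35850 at 6 d. The 4 alveolar type 1 markers on A summed to 44574 in Norm, 23760 to 43993 at 10 h, 62462 to 63312 at 2 d, 39052 to 42752 at 4 d and 47129 to 51681 at 6 d. On A both lists were highest at 2 d. On B, the other 2 alveolar type 1 markers summed to 4793 to 5170 at 2 d and 5106 to 5800 at 6 d. In Norm, at 10 h and at 4 d they summed to 3636 to 4008, 3889 to 4359 and 3870 to 4497. The other red cell marker, on C, gave 79 to 317 at 2 d and 138 to 350 at 10 h. The 3 ciliated cell markers on C summed to 3616 to 3906 in Norm, 3220 to 3906 at 10 h, 833 to 1080 at 2 d, 1691 to 2276 at 4 d and 1083 to 1363 at 6 d. The 1 ciliated marker on B was also lowest at 2 d (3002 to 3710). The other 2, on A, did not set 2 d apart (1129 to 1648, against 1571 in Norm and 1284 to 2212 at 4 d). The 7 heart muscle markers summed to 23056 in Norm, 18396 to 20326 at 10 h, 12308 to 13272 at 2 d, 17506 to 19797 at 4 d and 14083 to 15978 at 6 d. The ciliated sum on C and the heart muscle sum were lowest at 2 d. At 2 d against Norm limma called 3 of 6 ciliated and 4 of 7 heart muscle markers lower, where 1.09% of all probe sets were. The 7 skeletal muscle markers summed to 9711 on the sole Norm array, 920 to 1203 at 10 h, 2592 to 2840 at 2 d, 4662 to 7633 at 4 d and 2730 to 2960 at 6 d. At 10 h, 5 of the 7 lay below the floor on array 1a and all 7 on array 1b. The part of cell composition in the Eln and Mfap5 differences was not tested.

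The genes whose levels ran most like those of Eln 92836_at over the 9 A arrays, by Pearson's r of floored log2 levels, were Rfc3 (0.995), Jund (0.982), Sprr1b (0.959), Mgp (0.953), Klc4 (0.951), Col1a1 (0.949), Col6a1 (0.945) and Blvra (0.942). Mgp is a matrix inhibitor of calcification, and Col1a1 and Col6a1 encode collagen chains. For Mfap4 they were Reg3g (0.968), Col4a2 (0.961) and Kif22 (0.955), for Lox Rrad (0.975), Pkig (0.947) and Abcc5 (0.934), and for Mfap2 Ipo8 (0.959), Hoxa5 (0.946) and Nr1h3 (0.944). For Fbln5 they were Agtrap (0.945), Caprin1 (0.930) and Ints7 (0.928) over 10 B arrays. For Fbln1 94308_at they were Trpv2 (0.907), Ercc5 (0.890) and Lamtor3 (0.883), and for Fbln2 Ubac1 (0.914), Scamp1 (0.894) and Snx5 (0.885), over the A arrays. For Mfap5 131248_at they were Rpl3l (0.881), Pinlyp (0.857) and 1300002E11Rik (0.854), and for Loxl1 170492_at Zfp692 (0.925), Hyal6 (0.922) and Lgi2 (0.893), over 10 C arrays. Over the 7 A arrays left without those labelled Norm 1b and 4 d 1a, the genes named for members on A had r of 0.854 to 0.997. These correlations describe 9 or 10 arrays that share runs and were picked as the highest among the tested probe sets of an array type.

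Among the members themselves, Eln 92836_at correlated at 0.926 with Mfap5 99518_at, 0.770 with Mfap4 and 0.217 with Lox over the 9 A arrays, and at -0.782 with Fbln1 94309_g_at. Over the 7 arrays of the check these values were 0.928, 0.808, 0.013 and -0.803. The probe sets thus did not form a single pattern. Eln and Mfap5 99518_at were highest at 2 d, Mfap2 and Eln 92207_at at 6 d and Lox at 10 h.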

How the data were processed

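The deposited tables hold an intensity for each probe set and array on a linear scale. Trimmed means were 800.2 to 800.4 on every array, so the authors had scaled them, and no further scaling was applied. The software and any background step were not given in the sources used here. Each array type was given a floor at the 40th percentile of its values, which was 236.05 for A, 297.36 for B and 200.93 for C. Lower values were raised to it before taking log2. Those exceeding it on 2 or more arrays were tested (8392, 8600 and 8809 probe sets). Group means were fitted per array type with limma (version 3.58.1, R 4.3.3; lmFit, then eBayes with trend), and two-sided p-values were adjusted by Benjamini-Hochberg over the 3 types together. The fit was also run on simulated arrays with independent noise. These held no differences in run, RNA integrity or labelling, so that run does not bear on such differences here. The number of arrays limits the precision, and same-group arrays had Spearman correlations of 0.872 to 0.971. Symbols came from the platform annotation, which can be old. All members were named; of the related list, called genes and the next 4 by F test; and the genes of most like pattern, 8 for Eln and 3 for each other member's representative probe set. The members and lists were chosen with earlier results of these data known. Replicate letters did not pair samples: of 26 cross-group pairs of same-lettered arrays, deviations correlated at -0.158 to 0.134.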

Additional observations from a re-analysis of the deposited data

Results flagged for a closer look

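4 differences between times were singled out because the limma test of the difference itself passed. Eln (92836_at) was higher at 2 d than at 10 h by 2.13 on the log2 scale (adjusted p = 0.0152) and lower at 4 d than at 2 d, with a difference of -1.68 (adjusted p = 0.0319). Mfap5 (99518_at) was higher at 2 d than at 10 h by 0.87 (adjusted p = 0.0234) and lower at 4 d than at 2 d, with a difference of -0.87 (adjusted p = 0.0262). In each case every array of the higher group exceeded every array of the lower. Of all tested probe sets, 28.2% were likewise higher at 2 d than at 10 h, and 26.6% lower at 4 d than at 2 d. The 2 d arrays had Gapdh 3' to 5' ratios of 3.64 to 4.60 and stand in another deposit run than the 10 h and 4 d arrays, so time and run cannot be told apart.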

How the results depend on the processing

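Of 3912 alternative values for 204 changes of tested member probe sets, 3751 kept direction and side of the threshold, 59 lost a call, 22 gained one and 80 changed sign, none of these a called change. Runs without the A arrays labelled Norm 1b and 4 d 1a (written here as without both arrays), and all alternatives for 2 d minus 10 h, 4 d minus 2 d, 6 d minus 10 h and 6 d minus 4 d, were chosen after seeing the data. Unless a value shows it, the cause was not tested. For 2 d minus Norm the 2 calls became 0 with no filter on dim probe sets, median scaling, no trend, the replicate block, only the compared groups, adjustment within an array type and without both arrays (then B and C alone), and 0 to 2 when 1 sample was left out. For 2 d minus 10 h they became 0 with no filter and with only the compared groups, 5 without both arrays and 0 to 3 with 1 sample left out. For 4 d minus 2 d they became 0 with no filter and with only the compared groups, 1 with quantile normalization, 4 without both arrays and 0 to 4 with 1 sample left out. From 0 calls, 4 d minus 10 h gave 1 without both arrays and 0 to 1 with 1 sample left out, 6 d minus 10 h gave 1 with a filter that asks for 5 arrays in place of 2 and 1 without both arrays, and 6 d minus 4 d gave 1 and 2 in these checks and 0 to 2 with 1 sample left out. The F test gave 5 with the filter at 5 arrays, 1 with quantile normalization and 0 to 2 with 1 sample left out. Over all probe sets the calls ranged from 0 (compared groups only) and 13 (without 6 d 1b) to 733 for 2 d minus Norm (480 as reported), 0 and 152 to 1761 for 2 d minus 10 h (1404), 0 and 200 to 1806 for 4 d minus 2 d (1017) and 0 to 672 for the F test (319). In the other comparisons, with 0 to 25 as reported, they ranged from 0 to 250. No scaling moved the median of all probe sets by over 0.1. The replicate letters did not pair samples, and the block changed no other member count. Of the changes given in the text, those of each gene's representative probe set against Norm and late against early, and those that turned without both arrays, the following uncalled ones, on the log2 scale, crossed 0 when 1 sample was left out, where late minus early is the mean of 4 d and 6 d minus that of 10 h and 2 d. Eln 92207_at ranged over -0.50 to 0.037 for 10 h minus Norm and -1.85 to 0.39 for 4 d minus 2 d. Eln 92836_at ranged over -0.023 to 0.093 for 10 h minus Norm and -0.37 to 0.031 for late minus early. Fbln1 94308_at ranged over -0.33 to 0.037 for 6 d minus 4 d and -0.093 to 0.27 for 6 d minus Norm. Fbln1 94309_g_at ranged over -0.0016 to 0.32 for 6 d minus 4 d. Fbln5 162639_at ranged over -0.064 to 0.22 for 4 d minus Norm and -0.14 to 0.11 for late minus early. Lox 160095_at ranged over -1.15 to 0.66 for 4 d minus 2 d, -0.051 to 1.76 for 4 d minus Norm, -0.16 to 1.66 for 6 d minus 4 d and -0.69 to 0.22 for late minus early. Loxl1 103850_at ranged over -0.48 to 0.11 for 4 d minus 2 d and -0.090 to 0.50 for 6 d minus 4 d. Loxl1 170492_at ranged over -0.40 to 0.23 for 10 h minus Norm, -0.49 to 0.0093 for 4 d minus Norm, -0.32 to 0.00034 for late minus early and -0.0088 to 0.15 for mean of the 4 low-oxygen groups minus Norm. Mfap2 101095_at ranged over -0.12 to 0.0096 for 2 d minus Norm and -0.021 to 0.077 for late minus early. Mfap4 161962_f_at ranged over -0.0093 to 1.72 for 4 d minus 10 h. Mfap5 131248_at ranged over -0.27 to 0.24 for 4 d minus 2 d and -0.23 to 0.30 for 6 d minus Norm. Mfap5 99517_at ranged over -0.46 to 0.44 for 2 d minus 10 h and -0.030 to 0.88 for 4 d minus 2 d. In other settings uncalled changes of the same set also changed sign. With replicate block they were -0.080 for Eln 92836_at, 10 h minus Norm (otherwise 0.035). With quantile normalization they were 0.0010 for Fbln1 94308_at, 2 d minus Norm (otherwise -0.011), 0.056 for Eln 92836_at, late minus early (otherwise -0.17) and -0.039 for Mfap5 131248_at, 6 d minus Norm (otherwise 0.034). With median scaling they were -0.0069 for Fbln1 94308_at, 6 d minus Norm (otherwise 0.088), -0.065 for Mfap2 101095_at, late minus early (otherwise 0.028), -0.0018 for Fbln1 94308_at, late minus early (otherwise 0.091) and 0.025 for Fbln5 162639_at, late minus early (otherwise -0.012). Without the A arrays labelled Norm 1b and 4 d 1a they were -0.0093 for Mfap4 161962_f_at, 4 d minus 10 h (otherwise 0.86), 0.11 for Loxl1 103850_at, 4 d minus 2 d (otherwise -0.18), -0.090 for Loxl1 103850_at, 6 d minus 4 d (otherwise 0.20) and -0.0016 for Fbln1 94309_g_at, 6 d minus 4 d (otherwise 0.16). Signals below the floor have no order.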
